A study of Mus musculus with 12 samples.

Results

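The genes described here make sterols and fatty acids, or control those pathways through the sterol regulatory element binding proteins (SREBPs). They were chosen by symbol, as a pathway list: 32 symbols were listed, and 31 of them had a row among the 23438 genes of the deposited table. Hmgcs1 was not analysed here. The sterol arm held 17 genes, 6 of the mevalonate and isoprenoid steps and 11 of the squalene and sterol steps. The fatty acid arm held 8 genes of fatty acid synthesis and desaturation, and the remaining 6 genes belonged to SREBP control.

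RNA was sequenced from bone marrow derived macrophages (BMDMs), cells that mouse marrow progenitors become in culture, here taken on day 7 of differentiation. The labels gave 5 libraries with the genotype Baf60a KO (knockout) and 7 WT (wild-type) libraries, all from primary cells of atherosclerotic C57 mice. Baf60a is the protein of the gene Smarcd1, which belongs to SWI/SNF (BAF), a complex that moves nucleosomes along DNA. The sources used here do not give how the deletion was made, in which cells, or the age and diet of the mice. Whether each library is a mouse of its own is not labelled, so the spread behind the p-values is that of libraries and can be technical in part. Values are TPM, a length-corrected share of the transcripts in a library. TPM does not keep the depth of a library, which leaves counting error unknown.

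SREBPs are made as precursors in the membrane of the endoplasmic reticulum, where Scap escorts them to the Golgi when sterols are low and Insig proteins hold them back when sterols are high. The cleaved protein enters the nucleus and switches on target genes. Srebf2 encodes SREBP-2, which acts mainly on sterol synthesis, and Srebf1 encodes SREBP-1, which acts mainly on fatty acid synthesis and desaturation. In macrophages that take up lipoprotein cholesterol, the sterol branch is known to be held down, and liver X receptors (LXRs) raise Srebf1 and the stearoyl-CoA desaturases.

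Smarcd1, the targeted gene, stood at 5.99 to 7.58 TPM in the KO libraries and at 11.6 to 15.6 TPM in WT, with no overlap (log2 fold change -0.88 with 12 libraries, limma adjusted p of 0.000744). The means were 6.90 TPM in KO and 13.6 TPM in WT, so part of the transcript remained in KO. The protein is not part of these data. WT replicates 2, 3 and 4 stood apart from the other 9 libraries in markers of several cell types. All 8 macrophage markers examined were present in every library, and their summed level was 8888 to 9441 TPM in KO, 2397 to 4737 TPM in WT replicates 2, 3 and 4, and 9044 to 10988 TPM in the other WT libraries. Of these 8, 4 were lower in all 3 replicates than in the other WT libraries (Csf1r, Fcgr1, C1qa and C1qb), and Cd68, Adgre1, Itgam and Mertk overlapped. The 9 fibroblast and smooth muscle markers summed to 202 to 649 TPM, 4154 to 10621 TPM and 120 to 460 TPM in the same order. Of these 9, 7 were above the other WT libraries in all 3 replicates, and Dcn and Lum overlapped. The 8 neutrophil markers summed to 986 to 6146 TPM, 151 to 174 TPM and 1160 to 1516 TPM, with 6 lower in all 3 replicates than in the other WT libraries and Mmp8 higher (5.89 to 8.62 TPM in KO, 65.6 to 72.2 TPM in those replicates and 8.19 to 11.4 TPM in the other WT libraries). The remaining neutrophil marker, Ly6g, overlapped within WT. The 5 markers of cycling cells summed to 196 to 323 TPM, 443 to 487 TPM and 184 to 266 TPM. All 5 were above the other WT libraries in the 3 replicates, but 2 reached into the KO range. They were Mki67 (33.9 to 34.4 TPM, KO 19.7 to 36.0 TPM) and, barely, Top2a (80.3 to 92.0 TPM, KO 45.9 to 80.3 TPM). Of all genes in the fit described below, 28.3% were lower in all 3 replicates than in the other WT libraries and 29.9% were higher. The 6 adipocyte markers were at or near 0 (at most 0.66 TPM summed), and so were the 5 lymphocyte markers (at most 0.43 TPM summed). KO and WT were therefore compared with all 12 libraries and with the 9 left without WT replicates 2, 3 and 4. The split of the WT libraries was drawn from measured values, so those 3 are set beside the other 4 without a test.

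At the level of each arm, KO macrophages overlapped the 4 other WT libraries. WT replicates 2, 3 and 4 held less sterol arm and more fatty acid arm transcript than those 4, the latter mainly in the desaturases. The 17 sterol arm genes summed to 309 to 350 TPM in KO, 226 to 279.5 TPM in WT replicates 2, 3 and 4, and 317 to 371 TPM in WT replicates 1, 5, 6 and 7. The 8 fatty acid arm genes summed to 170 to 192 TPM in KO, 190 to 259 TPM in WT replicates 2, 3 and 4, and 175 to 182 TPM in the other WT libraries. In the same order, its synthesis genes summed to 112 to 122 TPM, 107 to 153 TPM and 108 to 115 TPM. Its desaturases summed to 57.0 to 70.45 TPM, 83.5 to 106 TPM and 59.95 to 68.9 TPM. Only Scd1 and Scd2 of this arm were higher in all of WT replicates 2, 3 and 4 than in the other WT libraries, and Fads1 was lower. The shares over all genes tested were 29.9% and 28.3%. The mean log2(TPM + 1) of the sterol arm exceeded that of the fatty acid arm by 0.24 to 0.51 in the 5 KO libraries and by 0.49 to 0.66 in WT replicates 1, 5, 6 and 7. In WT replicates 2, 3 and 4 the order was turned round, with differences of -0.49, -0.11 and -0.67. The KO and other WT ranges overlapped, because WT replicate 6 (0.49) lay below KO replicate 2 (0.51). These samples are bulk cultures, in which fewer cells of a type and less RNA per cell cannot be told apart. The part of the marker differences given above in these values was not tested.

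**Figure D1:**
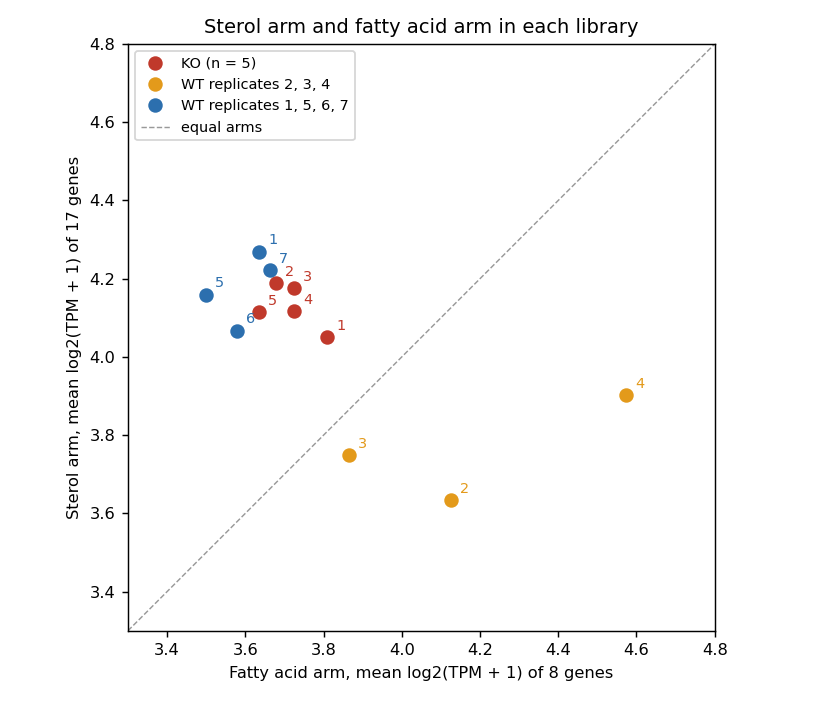
Mean log2(TPM + 1) of the 17 sterol arm genes (vertical axis) against that of the 8 fatty acid arm genes (horizontal axis), 1 point per library with its replicate number. KO libraries (red) and WT replicates 1, 5, 6 and 7 (blue) lie above the dashed line of equal arms, and WT replicates 2, 3 and 4 (orange) lie below it, at differences of -0.49, -0.11 and -0.67.

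KO and WT were compared gene by gene to ask whether these pathways differed with the Baf60a KO genotype. All 31 members reached 1 TPM in at least 5 libraries and entered the fit over 11152 genes (limma on log2(TPM + 1), p-values adjusted by the Benjamini-Hochberg method over all genes tested, threshold 0.05). With 12 libraries 0 of 31 members passed the threshold, where 0.126% of all genes tested did. At an unadjusted p under 0.05 there were 2, Insig2 and Ebp, against 17.5% of all genes. Both were higher in KO, as were 14.3% of all genes at that threshold, and 20 of 31 members had a positive log2 fold change, against 57.9%. With 9 libraries 1 of 31 passed, the desaturase gene Scd2, which rose in KO, where 2.33% of all genes passed and 1.61% passed as higher in KO. At an unadjusted p under 0.05 there were 4 members with 9 libraries, Scd2 and Insig2 higher and Srebf2 and Cyp51 lower in KO, against 18.9% of all genes. With 9 libraries that count depended on the setting: it was 11 of 31 with median-ratio scaling (16.6% of all genes), 9 with sample quality weights (23.9% of all genes) and 9 without WT replicate 6 (19.3% of all genes). With limma sample quality weights 1 member (Insig2) passed with 12 libraries, where 6.81% of all genes did, and 2 (Insig2 and Scd2) passed with 9, where 6.8% did.

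The log2 fold changes (KO minus WT) of the arms were small. With 9 libraries the median was -0.05 over the sterol arm and 0.07 over the fatty acid arm, beside 0.05 over all genes tested. With 12 libraries, where WT replicates 2, 3 and 4 enter, the medians were 0.13 and -0.08, beside 0.04 over all genes. The comparisons share the KO libraries and 4 WT libraries. With 9 libraries 11 of 17 sterol arm genes had a negative log2 fold change, against 32.5% of all genes tested. Under median-ratio scaling 14 of 17 were negative, against 50% of all genes, and 9 members had an unadjusted p under 0.05 in the lower direction (Cyp51, Srebf2, Mvd, Fads1, Fdft1, Sqle, Stard4, Mvk and Fdps), against 9.28% of all genes, but 0 passed the adjusted threshold in limma, where 2.02% of all genes did.

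**Figure D2:**
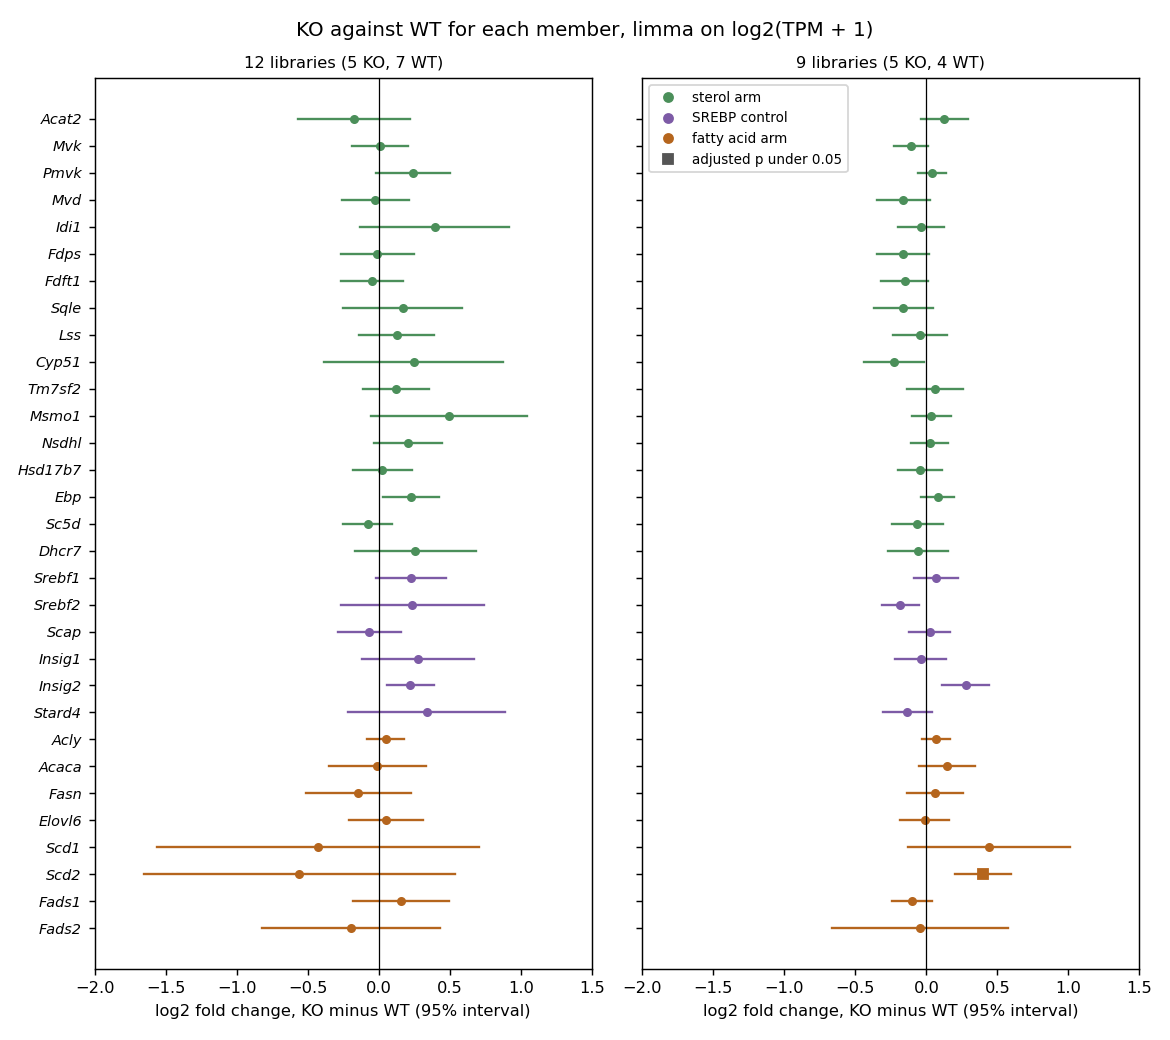
Log2 fold change of each member, KO minus WT, from limma on log2(TPM + 1), with 95% intervals, for 12 libraries (left) and for 9 libraries without WT replicates 2, 3 and 4 (right). Circles mark members that did not pass the adjusted threshold, and the square marks Scd2, at 0.40 with 9 libraries.

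The mevalonate and isoprenoid steps carry acetyl-CoA to the farnesyl unit from which sterols, and the lipid tails of many proteins, are built. Of the 6 genes measured, 0 passed the threshold in limma with 12 or 9 libraries, where 0.126% and 2.33% of all genes did. Beside 17.5% and 18.9% of all genes, 0 of these 6 had an unadjusted p under 0.05. Fdps, the synthase of the farnesyl unit, was the most abundant of them, with a mean of 60.3 ± 4.90 TPM in KO and of 67.7 ± 7.32 TPM in WT replicates 1, 5, 6 and 7 (SD, n = 5 and n = 4). Mvk, the mevalonate kinase, averaged 15.6 ± 0.809 TPM in KO and 16.9 ± 0.975 TPM in those WT libraries (SD, n = 5 and n = 4). Mvd, the decarboxylase that follows the kinases, averaged 13.4 ± 0.638 TPM in KO and 15.2 ± 2.01 TPM in WT (SD, n = 5 and n = 4), with a log2 fold change of -0.16 and a 95% interval of -0.35 to 0.02 with 9 libraries, and a log2 fold change of -0.02 with 12. It passed the threshold only when WT replicate 6 was left out as well (log2 fold change -0.25, limma adjusted p of 0.0498).

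Idi1, the isomerase that makes the reactive isoprene unit, showed the widest gap within WT among these 6 genes. It stood at 17.5, 18.1, 16.3, 18.1 and 15.6 TPM in KO replicates 1 to 5. In WT replicates 2, 3 and 4 it stood at 6.50, 8.88 and 9.68 TPM, and WT replicates 1, 5, 6 and 7 had 18.2, 17.5, 15.4 and 19.4 TPM. The 3 replicates thus lay below all other libraries, and KO and the other WT libraries overlapped. The KO minus WT log2 fold change was -0.04 with 9 libraries (95% interval -0.20 to 0.12, limma adjusted p of 0.817) and 0.39 with 12 (adjusted p of 0.345). Pmvk, the phosphomevalonate kinase, was also below all other libraries in these replicates, with 14.7, 18.2 and 14.1 TPM, where the other WT libraries had 20.6 to 23.1 TPM. Acat2, the cytosolic thiolase that starts the pathway, went the other way. It stood at 11.4 to 14.2 TPM in KO, at 18.7, 15.9 and 23.6 TPM in WT replicates 2, 3 and 4, and at 10.3 to 11.9 TPM in the other WT libraries. Of the 31-base words in the Acat2 transcripts, 43.7% also occur in its near copy Acat3 and 13.2% in the overlapping gene Tcp1. Acat3 was listed at no more than 0.24 TPM and Tcp1 at 172 to 254 TPM. The sources used here do not say how strand was handled, so the level of Acat2 is uncertain. Fdps shares 27.9% of its words with other genes (24.6% with Gm43738) and Idi1 shares 27.1% (18.4% with Gm13502). The levels of Fdps and Idi1 call for caution too.

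The squalene and sterol steps join farnesyl units to squalene, close the rings and trim lanosterol to cholesterol. Here too 0 of 11 genes passed the threshold in limma with 12 or 9 libraries, where 0.126% and 2.33% of all genes did. Ebp, the sterol isomerase, had an unadjusted p under 0.05 with 12 libraries (log2 fold change 0.23, limma adjusted p of 0.255), and Cyp51, the lanosterol demethylase, with 9 (log2 fold change -0.23 ± 0.0933 SE, limma adjusted p of 0.225). Cyp51 stood at 14.5, 20.1, 18.3, 17 and 17.8 TPM in KO replicates 1 to 5. WT replicates 2, 3 and 4 had 6.57, 7.75 and 14.2 TPM, and WT replicates 1, 5, 6 and 7 had 23.9, 19.5, 19.2 and 20.1 TPM. Only KO replicate 2 reached into the range of those 4 WT libraries, and WT replicate 4 lay just under the lowest KO library. With 12 libraries the Cyp51 log2 fold change was 0.25 (95% interval -0.38 to 0.88, limma adjusted p of 0.581), the opposite sign.

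Msmo1, the methylsterol oxidase that acts after Cyp51, was the most abundant of these 11 genes in each of the 9 libraries. It stood at 36.2, 44.8, 40.9, 37.8 and 41.6 TPM in KO replicates 1 to 5. In WT replicates 2, 3 and 4 it stood at 15.2, 19 and 20.3 TPM, and WT replicates 1, 5, 6 and 7 had 41.1, 37.3, 39.3 and 39.1 TPM. The KO range enclosed that of the other WT libraries, and the 3 replicates stood far below both. The log2 fold change (KO minus WT) was 0.03 with 9 libraries (95% interval -0.10 to 0.17) and 0.50 with 12 (limma adjusted p of 0.308).

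Promoter sequences of 4 members are shown, those that differed most within WT in their own group among members with a RefSeq entry: the first 2 of the sterol arm, Cyp51 and Msmo1, then Srebf2 of SREBP control and Fasn of the fatty acid arm. Each runs 5′ to 3′ on the strand of its gene, from 250 bases before the annotated start, with 50 bases from the start on (RefSeq, GRCm38.p6). Capitals mark matches, on either strand, to CCAAT (the box read by NF-Y), GGGCGG (read by Sp1) and ATCACNNCA, a loose form of the sterol regulatory element. The windows are chr5:4104648-4104947 (minus strand), chr8:64733529-64733828 (minus), chr15:82147019-82147318 (plus) and chr11:120824498-120824797 (minus).
Cyp51: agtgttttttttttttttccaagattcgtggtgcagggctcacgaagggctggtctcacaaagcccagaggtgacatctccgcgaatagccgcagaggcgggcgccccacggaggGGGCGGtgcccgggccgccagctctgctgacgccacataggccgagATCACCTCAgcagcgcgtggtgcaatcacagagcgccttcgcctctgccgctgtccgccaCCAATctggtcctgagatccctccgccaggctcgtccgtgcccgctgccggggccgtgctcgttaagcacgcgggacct
Msmo1: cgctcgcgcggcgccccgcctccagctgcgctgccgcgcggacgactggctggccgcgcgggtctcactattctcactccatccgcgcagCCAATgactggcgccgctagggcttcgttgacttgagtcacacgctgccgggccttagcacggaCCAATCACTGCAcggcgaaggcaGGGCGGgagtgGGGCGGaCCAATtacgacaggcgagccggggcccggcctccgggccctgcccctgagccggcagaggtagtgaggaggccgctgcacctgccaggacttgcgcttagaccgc
Srebf2: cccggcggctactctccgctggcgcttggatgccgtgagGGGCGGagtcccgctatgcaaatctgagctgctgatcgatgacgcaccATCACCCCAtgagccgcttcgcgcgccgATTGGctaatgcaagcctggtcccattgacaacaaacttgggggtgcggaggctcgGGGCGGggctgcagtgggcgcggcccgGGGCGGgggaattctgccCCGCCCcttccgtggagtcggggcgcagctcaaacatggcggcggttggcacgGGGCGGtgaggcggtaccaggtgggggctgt
Fasn: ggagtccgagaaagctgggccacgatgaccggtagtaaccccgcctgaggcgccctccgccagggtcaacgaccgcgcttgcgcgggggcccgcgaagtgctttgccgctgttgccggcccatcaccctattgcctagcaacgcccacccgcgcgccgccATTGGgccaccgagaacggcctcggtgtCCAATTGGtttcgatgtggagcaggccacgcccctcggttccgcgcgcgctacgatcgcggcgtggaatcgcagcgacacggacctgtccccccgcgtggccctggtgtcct
The loose element stood at ATCACCTCA in Cyp51, beginning 89 bases before the start, at ATCACTGCA in Msmo1, 93 bases before it, and at ATCACCCCA in Srebf2, 163 bases before it. In Msmo1 it overlaps a CCAAT match. The window of Idi1, next after Msmo1 in the sterol arm, had no match to it. Those of Cyp51, Msmo1 and Srebf2 were the only member windows with it, 9.38% of 32 windows from 24 members, against 2.77% of all 32851 windows of 300 bases. Its letters were chosen after the windows had been read, so this share is a description of that choice. The stricter TCACNCCAC was found in 0 of the 32 member windows and in 1.24% of all. CCAAT was found in 76.5% of the 17 sterol arm windows, 50% of the 10 control windows and 40% of the 5 fatty acid arm windows, against 37.4% of all. GGGCGG was found in 82.4%, 80% and 40% in the same order, against 35.7% of all. The E box CACGTG, which SREBP-1 can also bind, was found in 18.8% of member windows (Hsd17b7, Insig1, Dhcr7, Sc5d and Scap), against 7.15% of all. A match does not show that a factor binds there, and 7 members (Scd1, Scd2, Sqle, Fdft1, Fdps, Fads1 and Stard4) had no entry.

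Within WT, 7 of the 11 squalene and sterol genes were lower in replicates 2, 3 and 4 than in every other library (Sqle, Lss, Cyp51, Msmo1, Nsdhl, Ebp and Dhcr7), as were 25.5% of all genes tested. Sqle, the squalene epoxidase that is a rate-limiting step of the pathway, stood at 24.9 to 28.2 TPM in KO, at 14.9, 18.4 and 19.4 TPM in WT replicates 2, 3 and 4, and at 25.6 to 34.9 TPM in the other WT libraries. Dhcr7, the last reductase on the way to cholesterol, stood at 13.1 to 18.3 TPM, at 7.59, 11.9 and 10.3 TPM and at 15.3 to 18.4 TPM in the same order. Lss, which closes the ring to lanosterol, Nsdhl, a decarboxylase, and Ebp differed less. Lss stood at 4.47 to 5.62 TPM in WT replicates 2, 3 and 4 and at 5.89 to 8.09 TPM in the other WT libraries. Ebp stood at 18.9 to 19.7 TPM and 22.6 to 26.7 TPM in the same order. The other 4 genes overlapped: Fdft1 (squalene synthase), Tm7sf2 (a sterol reductase), Hsd17b7 (a ketosteroid reductase) and Sc5d (a desaturase of the sterol ring). Fdft1 shares 31.9% of its 31-base words with other genes, 17.6% with Ctsb, a gene at 4666 to 9925 TPM, and its level is uncertain for that reason.

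**Figure D3:**
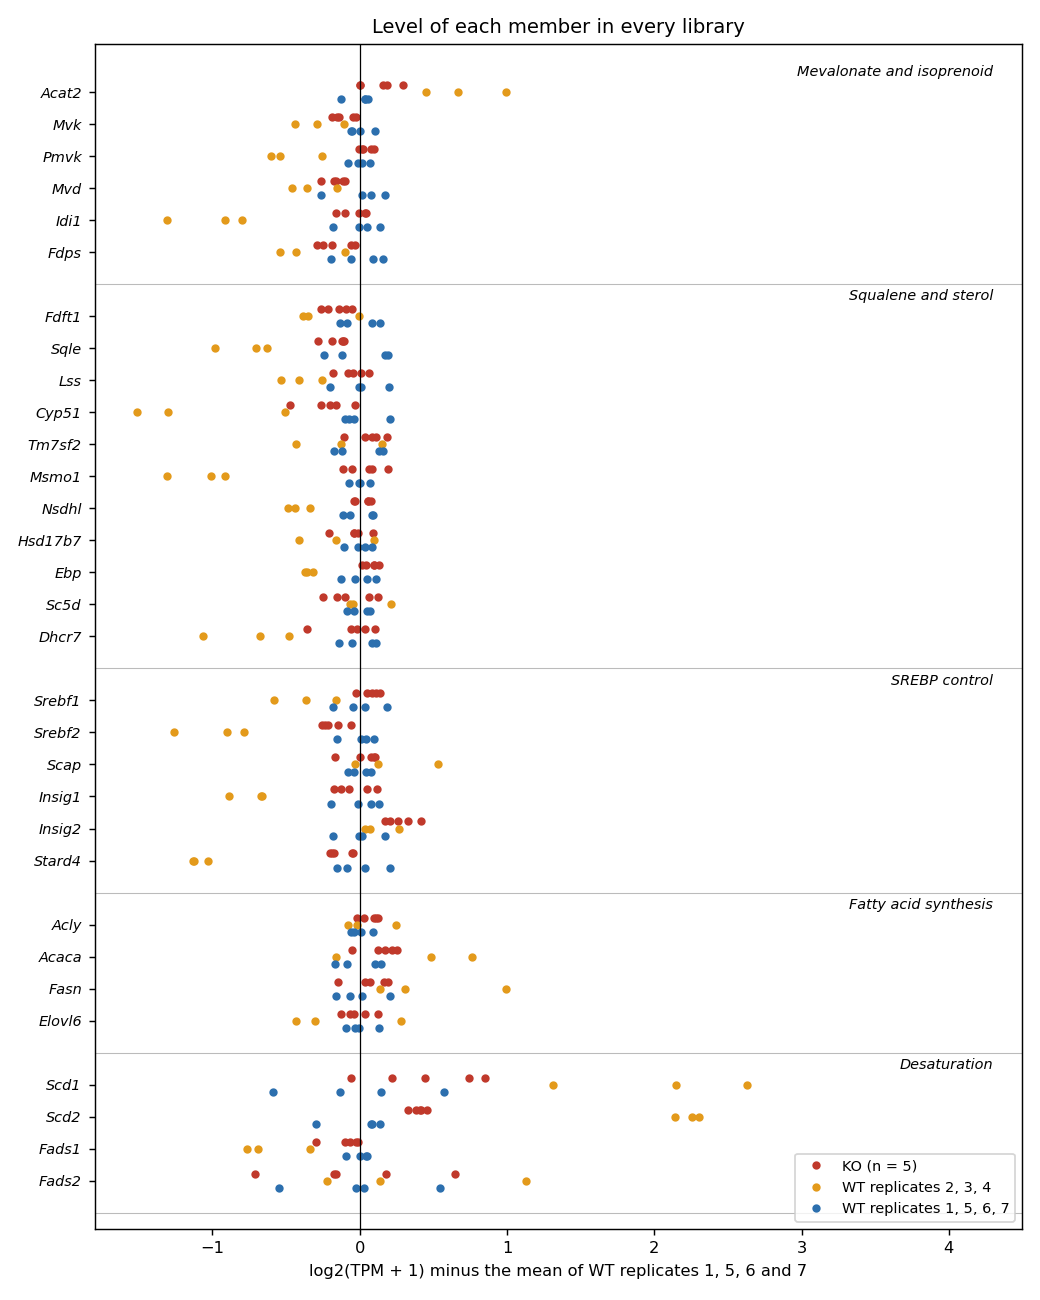
Level of each of the 31 members in every library, as log2(TPM + 1) minus the mean of WT replicates 1, 5, 6 and 7, with genes grouped by role and 1 point per library. WT replicates 2, 3 and 4 (orange) lie to the left of the other libraries for 13 members and to the right for 3, Acat2, Scd1 and Scd2, where 25.5% and 23.6% of all genes tested lie so.

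Of all 31 members, 14 were lower in all 3 of WT replicates 2, 3 and 4 than in every other WT library, where 28.3% of all genes tested were. Another 3 were higher in all 3, where 29.9% of all genes were, and 14 overlapped. By at least 1.5-fold, 9 were lower (background 12%) and 3 were higher (background 15.2%). The sterol arm gave 10 of 17 lower and 1 higher, SREBP control 3 of 6 lower, and the fatty acid arm 1 of 8 lower and 2 higher. The median log2 difference (WT replicates 2, 3 and 4 minus the other WT) was -0.36 over the sterol arm, -0.56 over SREBP control and 0.36 over the fatty acid arm, and 0.004 over all genes tested. The lowest single differences were -1.11 for Cyp51, -1.10 for Stard4 and -1.08 for Msmo1, and the highest were 2.23 for Scd2 and 2.03 for Scd1. The same 3 libraries carried the higher sums of fibroblast, smooth muscle and cycling markers and the lower sums of macrophage and neutrophil markers. The part of these marker sums in the differences was not tested.

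Among the control genes, Srebf2 had the lower values both in WT replicates 2, 3 and 4 and, by less, in KO, though the KO difference did not pass the threshold. It stood at 51.0, 54.9, 58.4, 52.4 and 51.7 TPM in KO replicates 1 to 5. WT replicates 2, 3 and 4 had 24.9, 32.2 and 35.0 TPM, and WT replicates 1, 5, 6 and 7 had 65.3, 54.8, 61.5 and 62.9 TPM. KO overlapped the other WT libraries only through WT replicate 5, and the 3 replicates lay below all others. The KO minus WT log2 fold change was -0.18 ± 0.0587 SE with 9 libraries (95% interval -0.31 to -0.05, limma adjusted p of 0.133) and 0.24 with 12 (adjusted p of 0.511). Srebf1 differed less within WT, at 35.6 to 39.9 TPM in KO, 27.96, 23.9 and 32.3 TPM in WT replicates 2, 3 and 4, and 31.9 to 41.4 TPM in the other WT libraries. Those 3 replicates lay below every KO library, and met the other WT libraries only through WT replicates 4 and 5. The log2 difference within WT was -0.37 for Srebf1 and -0.98 for Srebf2. The ratio of Srebf2 to Srebf1 was 1.31 to 1.49 in KO, 0.892 to 1.34 in WT replicates 2, 3 and 4, and 1.49 to 1.79 in the other WT libraries.

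Insig2, one of the proteins that retain the SREBP complex, was the member closest to the threshold after Scd2 with 9 libraries. It stood at 45.0, 46.2, 48.0, 53.5 and 50.3 TPM in KO replicates 1 to 5. In WT replicates 2, 3 and 4 it stood at 41.9, 41.0 and 48.2 TPM, and the other WT libraries had 40.3, 45.1, 35.0 and 39.8 TPM. Among the 9 libraries the ranges met only at KO replicate 1 and WT replicate 5. The log2 fold change was 0.28 ± 0.0741 SE with 9 libraries (95% interval 0.11 to 0.44, limma adjusted p of 0.0828) and 0.22 with 12 (adjusted p of 0.226), and it was positive under every alternative fitted. With sample quality weights it passed, at an adjusted p of 0.0245 (limma, 12 libraries) and 0.0399 (9 libraries).

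Insig1, itself an SREBP target, went with the sterol genes within WT. It stood at 25.7 to 31.7 TPM in KO, at 15.3, 18.0 and 18.0 TPM in WT replicates 2, 3 and 4, and at 25.4 to 31.96 TPM in the other WT libraries. The ratio of Insig2 to Insig1 was 1.52 to 1.93 in KO, 2.27 to 2.74 in WT replicates 2, 3 and 4, and 1.26 to 1.56 in the other WT libraries. Stard4, a carrier that moves cholesterol between membranes, stood at 12.4 to 13.9 TPM, at 6, 6.51 and 6.02 TPM and at 12.8 to 16.7 TPM in the same order. Scap, the escort, overlapped between all groups (21.5 to 26.1 TPM in KO, 22.8 to 35.4 TPM in WT).

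**Figure D4:**
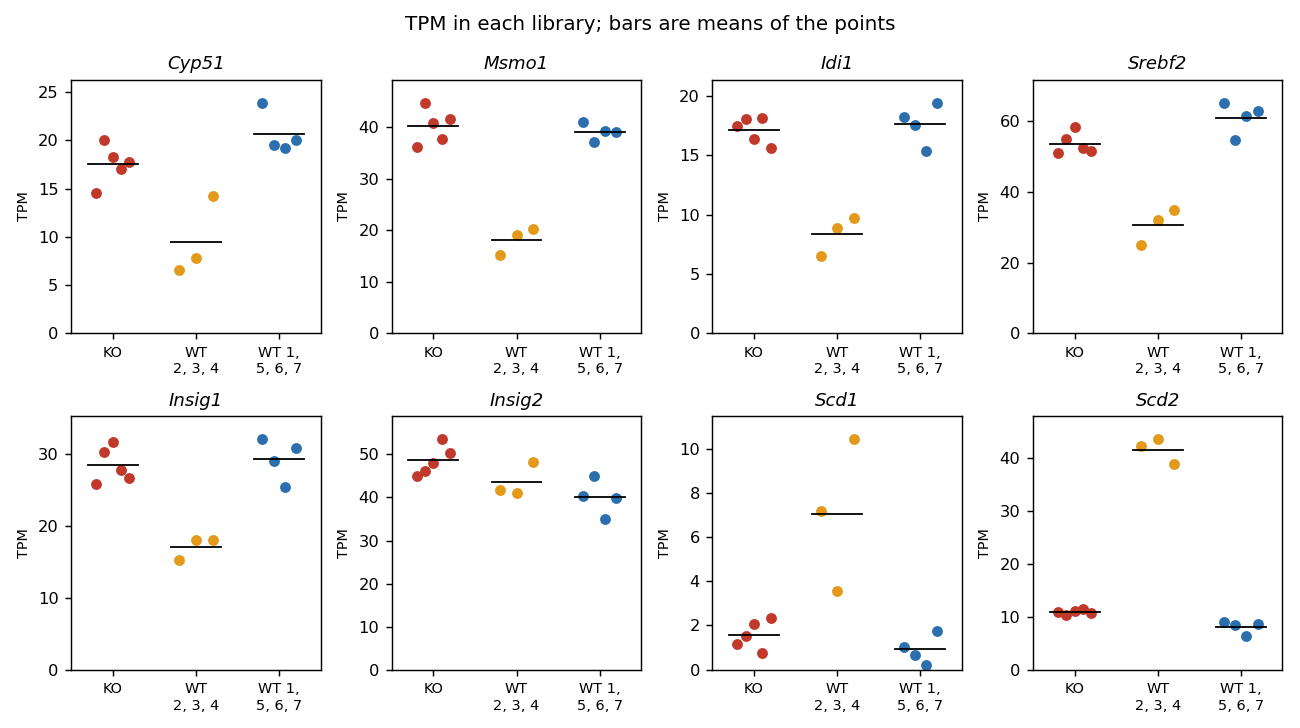
TPM (vertical axes, starting at 0) of 8 members in every library, 1 point per library, with a bar at the mean of each set, for KO (red), WT replicates 2, 3 and 4 (orange) and WT replicates 1, 5, 6 and 7 (blue). Scd2 is at 38.8 to 43.5 TPM in WT replicates 2, 3 and 4 and at 6.35 to 11.4 TPM in all other libraries, and Cyp51, Msmo1, Idi1, Srebf2 and Insig1 are lowest in those 3 replicates.

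In the fatty acid arm the synthesis genes and the desaturases gave different pictures. The 4 synthesis genes overlapped between KO and WT and within WT. None passed the threshold in limma with 12 or 9 libraries, where 0.126% and 2.33% of all genes did. Acly, which makes cytosolic acetyl-CoA from citrate, stood at 80.7 to 89.3 TPM in KO, 77.1 to 97.0 TPM in WT replicates 2, 3 and 4, and 78.5 to 86.8 TPM in the other WT libraries. Fasn, the fatty acid synthase, stood at 16.98 to 21.8 TPM, 20.9 to 38.7 TPM and 16.9 to 22 TPM in the same order, with the 38.7 TPM in WT replicate 4 alone. Acaca, the acetyl-CoA carboxylase, ranged from 6.55 to 13.3 TPM and Elovl6, an elongase, from 2.26 to 4.35 TPM over all 12 libraries. Acaca shares 31.7% of its 31-base words with Gm5182.

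Scd1 and Scd2 encode stearoyl-CoA desaturases, which introduce the first double bond into saturated fatty acids, and lie near each other on chromosome 19 (Scd1 at 44394455 to 44407879, minus strand, and Scd2 at 44293674 to 44306864, plus strand, GRCm38). Scd2 stood at 10.99, 10.3, 11.1, 11.4 and 10.8 TPM in KO replicates 1 to 5. WT replicates 2, 3 and 4 had 42.2, 43.5 and 38.8 TPM, and WT replicates 1, 5, 6 and 7 had 8.94, 8.54, 6.35 and 8.56 TPM. Every KO library was above every one of those 4 WT libraries, as for 7.09% of all genes tested, and far below the 3 replicates. With 9 libraries Scd2 averaged 10.9 ± 0.402 TPM in KO and 8.10 ± 1.18 TPM in WT (SD, n = 5 and n = 4), and it rose by 0.40 ± 0.0872 SE on the log2 scale (95% interval 0.20 to 0.59, limma adjusted p of 0.0484). Over the 17 alternatives fitted it stayed positive, at 0.289 to 0.445, but passed in 3 of them, with limma adjusted p from 0.0175 to 0.616. With 12 libraries the log2 fold change was -0.56 (limma adjusted p of 0.478).

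Scd1 was low throughout, at 1.15, 1.51, 2.08, 0.77 and 2.33 TPM in KO. In WT replicates 2, 3 and 4 it stood at 7.17, 3.58 and 10.4 TPM, and the other WT libraries had 1.04, 0.68, 0.23 and 1.75 TPM. KO and the other WT libraries overlapped, and the 3 replicates were above both. Of the 31-base words of Scd1 5.18% occur in Scd2 and 5.84% in Scd3, which was listed at no more than 0.01 TPM, so the bulk of each transcript is its own. Fads1, the delta-5 desaturase of polyunsaturated fatty acids, went the opposite way within WT: 39.5 to 48.5 TPM in KO, 28.3, 29.8 and 38.3 TPM in WT replicates 2, 3 and 4, and 45.7 to 50.5 TPM in the other WT libraries. Fads2, the delta-6 desaturase, overlapped between all groups, at 4.42 to 12.9 TPM in KO, 6.63 to 18.4 TPM in WT replicates 2, 3 and 4, and 5.07 to 11.99 TPM in the other WT libraries.

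Set against the fatty acid arm, the sterol arm differed by -1.01 on the log2 scale between WT replicates 2, 3 and 4 and the other WT libraries, and by -1.17 to -0.888 when each WT library was left out in turn. Between KO and those 4 WT libraries the same difference was -0.17, and -0.203 to -0.127 when each library was left out. With all 7 WT libraries it was 0.263 (means of 0.415 in KO and 0.152 in WT), the opposite sign, and it lay between 0.126 (without WT replicate 4) and 0.348 when each library was left out, with 0.156 without WT replicate 2. Within the fatty acid arm, Scd1 and Scd2 had the largest differences in the first 2 of these comparisons. They were 2.03 and 2.23 within WT, and 0.44 and 0.40 between KO and the 4 WT libraries. The other members of this arm ran from -0.60 (Fads1) to 0.48 (Fasn) within WT. Between KO and the 4 WT libraries they ran from -0.10 (Fads1) to 0.15 (Acaca). Scd1 was low there, at 0.77 to 2.33 TPM in KO and 0.23 to 1.75 TPM in WT. Libraries were left out in turn and members were not, so the ranges do not show how far the scores rest on these genes. No p is given for these scores.

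Of 15 other genes of SREBP processing and turnover, 0 passed the threshold in limma with 12 or 9 libraries, where 0.126% and 2.33% of all genes did. At an unadjusted p under 0.05 there were 3 and 2 of them, against 17.5% and 18.9% of all genes. Of 14 other isoprenoid and sterol genes tested, 1 fell in KO with 9 libraries, where 2.33% of all genes passed, and 2 and 5 had an unadjusted p under 0.05 with 12 and 9 libraries. The gene that fell was Ch25h, which makes 25-hydroxycholesterol, an oxysterol that keeps SREBP precursors in the endoplasmic reticulum. It stood at 95.6, 66.9, 70.3, 82.5 and 55.7 TPM in KO, at 0.92, 1.61 and 1.34 TPM in WT replicates 2, 3 and 4, while WT replicates 1, 5, 6 and 7 had 141, 161, 220 and 127 TPM. All KO libraries were below those 4 and above the 3. The log2 fold change was -1.11 with 9 libraries (limma adjusted p of 0.0193) and 1.52 with 12 (adjusted p of 0.481). Of 21 other fatty acid synthesis and elongation genes and 10 LXR genes and partners, 0 passed in limma with either set, beside the same shares. With 9 libraries 5 and 3 of them had an unadjusted p under 0.05, against 18.9% of all genes.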

How the data were processed

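The deposited table gives TPM per gene and library. Per the submitters' processing notes, the authors used bcl2fastq and Salmon 1.2.0 with the mm10 build; the depth of single libraries cannot be read from TPM. Per the labels' protocols, libraries were sequenced as read pairs of 51 bases. GENCODE M21 gave symbols for 23423 of 23438 identifiers. The 11152 genes that reached 1 TPM in 5 or more libraries were fitted as log2(TPM + 1) with limma 3.58.1 in R 4.3.3 (trended variance, genotype as the only term), with Benjamini-Hochberg adjustment over all genes tested and a threshold of 0.05, once with 12 libraries and once with the same genes and 9. Fold changes on this scale understate changes of low genes. The fit was tested on simulated data. Shared 31-base words were counted over the annotated transcripts, and promoters were read from RefSeq. The members and lists were chosen with earlier results of these data known. Genes named are all members, Smarcd1, and genes of the other lists past the threshold with either set, up to 3 per list and direction; others were chosen after their values were seen. Alternatives were another scaling, filters of none and 5 TPM, a pseudocount of 0.1, sample quality weights, blocks by replicate number and by submission number, and each library left out. The submission number is the one that ends the sample description. Its block set numbers 1 to 5 (WT replicates 1, 2 and 3, KO replicates 1 and 2) against the rest. No label names this cut as a batch. No 2 libraries were identical.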

Additional observations from a re-analysis of the deposited data

Results flagged for a closer look

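WT replicate 4 was far above the other 6 WT libraries in Scap, the SREBP escort, at 35.4 TPM where the others were at 22.8 to 26.4 TPM. The same library was far above the others in Fasn, the fatty acid synthase, at 38.7 TPM where the others were at 16.9 to 23.7 TPM. These were 2 of 68 groups of values examined by Dixon's criterion, which marks about 1 group in 20 by chance.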

How the results depend on the processing

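With 12 libraries 14 genes passed the threshold, and 4 with median-ratio scaling, 759 with sample quality weights, 3 with a submission block, and 2 to 36 when each library was left out; members passing were 0 and, with weights, 1 (Insig2). With 9 libraries 260 genes passed, and 167 with no filter, 758 with weights, 132 with a submission block and 51 to 462 when each library was left out. Of the members 1 passed (Scd2), and 0 with median-ratio scaling, no filter, a pseudocount of 0.1 or a submission block, 2 with weights, and 0 to 2 when each library was left out, the 2 being Scd2 and Mvd without WT replicate 6. The share of called genes that were higher in KO was 85.7% with 12 libraries and 69.2% with 9, against 50% and 35.1% with scaling. The cause was not tested. With a replicate block 0 genes and 0 members passed in either set, where the same libraries without the block gave 13 and 0 genes with 12 and 9 libraries and 0 members in both. These fits kept only the numbers found in both groups. They were replicates 1 to 5 of KO and WT in the first set, and replicates 1 and 5 in the second. The second fit is too small for its 0 to be informative. Same-numbered libraries deviated together in 3 of 5 pairs (correlations of -0.224 to 0.222). Of the 5 KO libraries, 2 correlated best with their own number. Whether the numbers pair the libraries cannot be decided from these values, because WT replicates 2, 3 and 4 stood apart within WT. With weights and 12 libraries, Srebf2 (-0.145), Cyp51 (-0.190) and Scd2 (0.260) took the sign they had with 9, and none passed. With 12 libraries the median log2 fold changes of the sterol and fatty acid arms, 0.127 and -0.076, became -0.044 and 0.049 with weights, and the second became 0.037 without WT replicate 4. The 3 differences of the arm scores kept their sign under the alternatives run for them. The count of members that did not overlap within WT, 17 of 31, was 17 to 22 under the alternatives. These were median-ratio scaling and each WT library left out. Leaving a library out can only keep or raise this count, so those alternatives could not have lowered it. Over all genes tested 28.3% were lower in all of WT replicates 2, 3 and 4 and 29.9% were higher. These shares were not computed for the alternatives. TPM keeps no depth, so counting error of low genes such as Scd1 could not be given.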

Other observations

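Among neighbouring pathway genes chosen after their values were seen, some stood far apart in WT replicates 2, 3 and 4. Of the 21 other fatty acid synthesis and elongation genes tested, 9 were lower in all 3 than in the other WT libraries and 8 were higher, where 28.3% and 29.9% of all genes were. Among those lower was Mid1ip1, an activator of acetyl-CoA carboxylase, with a log2 difference of -0.97. The 3 described next were among those higher. Me1, the malic enzyme that supplies NADPH for lipid synthesis, stood at 6.43 to 7.25 TPM in KO, 48.8, 39.1 and 83.0 TPM in WT replicates 2, 3 and 4, and 5.71 to 9.02 TPM in the other WT libraries. Fads3, a neighbour of Fads1 and Fads2 on chromosome 19, stood at 6.04 to 9.95 TPM, at 52.3, 40.1 and 93.8 TPM and at 4.47 to 11.4 TPM in the same order. Acss2, which makes acetyl-CoA from acetate, stood at 1.2 to 1.74 TPM, at 6.17, 5.95 and 3.96 TPM and at 1.02 to 1.24 TPM. Of the 10 LXR genes and partners 3 were lower in the 3 replicates, Nr1h2, Rxrb and Myo1e (log2 differences of -0.50, -0.25 and -0.96). Another 2 were higher, Abcg1 and Lpcat3 (1.68 and 0.13). The LXR target Abcg1, a sterol exporter, stood at 9.45 to 12.7 TPM, at 34.3, 30.0 and 18.7 TPM and at 5.46 to 9.23 TPM. Its KO minus WT log2 fold change with 9 libraries was 0.45 (limma adjusted p of 0.115), and with 12 it was -0.27 (adjusted p of 0.672). Abca1, of the same list, overlapped within WT, with a log2 difference of -0.44. Between KO and the 4 other WT libraries none of Me1, Fads3, Acss2 and Abcg1 passed the threshold in limma.

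Among the 9 libraries, WT replicate 6 held the lowest value of 7 of the 17 sterol arm genes and KO replicate 1 of 5. For Mvd these libraries tied as lowest at 12.38 TPM, and it is counted for neither. WT replicate 6 also had the lowest fibroblast and smooth muscle marker sum (120 TPM), and KO replicate 1 had the highest neutrophil marker sum (6146 TPM). The part of either in the sterol values was not tested.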
